A study of Mus musculus with 3 samples.

Results

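Genes that make cholesterol and fatty acids were followed in single cells of irradiated mouse liver. They are 32 of the 31253 genes in the deposited tables. They were taken by gene symbol, and each symbol matched 1 row. The list was chosen with earlier results of these data known. The sterol genes number 19. They run from Acat2 and Hmgcs1 through the mevalonate enzymes (Mvk, Pmvk, Mvd, Idi1, Fdps) and the squalene and sterol ring enzymes (Fdft1, Sqle, Lss, Cyp51, Tm7sf2, Msmo1, Nsdhl, Hsd17b7, Ebp, Sc5d, Dhcr7) to the sterol carrier Stard4. A further 5 genes regulate the pathway (Srebf1, Srebf2, Scap, Insig1, Insig2), and 8 make or modify fatty acids (Acly, Acaca, Fasn, Elovl6, Scd1, Scd2, Fads1, Fads2).

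The series holds 3 libraries, 1 per group, all from mouse liver. The control library, called FL_control here, is labelled as floxed for Gsdmd, with a wild-type genotype tag, and was not irradiated. The library labelled FL_IR carries the same floxed allele and was irradiated. The library labelled dHep_IR is titled as a hepatocyte deletion of Gsdmd, carries a knockout genotype tag, and was irradiated too. Both irradiated groups received 30 Gy and were harvested 7 days later, per the series' design text. Gsdmd codes for gasdermin D, a protein that forms pores in the membrane of dying cells. The Cre driver, the deleted exons, the body region exposed, the age of the mice and whether animals were pooled are not given in the sources used here. With 1 library per group, no difference below has a replicate check and no p-value is given.

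Cholesterol is built from acetyl-CoA by way of mevalonate, farnesyl diphosphate, squalene and lanosterol. The transcription factor SREBP-2, from Srebf2, mainly drives the sterol genes, and SREBP-1, from Srebf1, mainly the fatty acid genes. Scap carries both from the endoplasmic reticulum to the Golgi when membrane sterol is low, and the Insig proteins hold them back when it is high. LXR, a sterol-activated nuclear receptor, raises Srebf1 and Scd1 and the sterol exporter Abca1.

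SREBPs bind a sterol regulatory element, often close to a CCAAT box that binds NF-Y. The upstream sequences of 3 members are shown because they include the 2 regulators called lower in monocyte-like cells of the library labelled FL_IR, Srebf2 and Insig1, and the only windows of members in which a strict form of the element was found. Srebf1, called higher in Kupffer-like cells, is not shown. RefSeq promoter windows (GRCm38.p6, 250 bases before to 50 bases after a start) matched 25 of the 32 members. Those of Fads1, Fdft1, Fdps, Scd1, Scd2, Sqle and Stard4 were not analysed here. Capitals mark TCACNCCAC or ATCACNCCA, 2 overlapping forms of the sterol element, and CCAAT or its reverse complement ATTGG. Both strands were searched, and only bases before the RefSeq and GENCODE starts are printed, 5′ to 3′ on the plus strand.
Hmgcs1, chr13:119690101-119690350: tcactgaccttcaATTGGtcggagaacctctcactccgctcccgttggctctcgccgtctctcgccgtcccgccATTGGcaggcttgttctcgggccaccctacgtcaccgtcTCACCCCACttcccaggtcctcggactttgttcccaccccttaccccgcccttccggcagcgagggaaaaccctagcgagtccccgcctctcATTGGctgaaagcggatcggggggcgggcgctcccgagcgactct
Srebf2, chr15:82147019-82147180: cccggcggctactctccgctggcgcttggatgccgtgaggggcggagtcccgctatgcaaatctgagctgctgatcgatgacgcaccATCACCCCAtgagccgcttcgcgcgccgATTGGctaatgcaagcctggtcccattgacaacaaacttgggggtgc
Insig1, chr5:28071162-28071362: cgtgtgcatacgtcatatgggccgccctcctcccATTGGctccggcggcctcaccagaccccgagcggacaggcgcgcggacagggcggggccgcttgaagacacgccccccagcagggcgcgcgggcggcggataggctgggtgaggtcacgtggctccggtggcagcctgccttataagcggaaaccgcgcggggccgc

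In Hmgcs1 the sterol form TCACCCCAC began 137 bases before the RefSeq start, and in Srebf2 the form ATCACCCCA began 163 bases before it. TCACNCCAC occurred in 1.242% of all 32851 windows and in 1 of the 33 windows of members. ATCACNCCA occurred in 0.868% of all windows and in 1 of the 33. CCAAT was in 37.408% of all windows and in 21 of the 33, from 20 genes. These matches describe letters in a window and not binding sites. The members lie on 15 chromosomes by GENCODE M21 (GRCm38). Scd1 (chromosome 19, 44394455 to 44407879) and Scd2 (chromosome 19, 44293674 to 44306864) are close neighbours, as are Fads1 and Fads2.

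The libraries held 7265 to 8214 barcodes and 52858425 to 78694038 UMIs (unique molecular identifiers, 1 per captured transcript), with a median of 5423 to 7573 UMIs per barcode. After filters 6458, 6545 and 7261 cells remained in FL_control, FL_IR and dHep_IR, and values in sets of 3 follow this order below. The check of the targeted gene went against the labels. Gsdmd stood at 36.4 counts per 1000000 UMIs (CPM; 95% interval 34.7 to 38.1) in FL_control, 7.21 (6.52 to 7.97) in the library labelled FL_IR and 36.9 (35.5 to 38.3) in that labelled dHep_IR. It was lowest in the library labelled FL_IR in endothelial-like, Kupffer-like, monocyte-like, neutrophil-like and T-like cells alike. Neither the place of the 3′ tag relative to the deleted part nor the assignment of the labels to the irradiated libraries was tested. Hepatocyte-like cells, the labelled target, numbered 104, 42 and 9. Each direction that involves FL_IR or dHep_IR therefore holds for the library so labelled. The libraries shared 10 to 60 cell barcodes per pair. Leaving those cells out kept every count of calls in the first 2 comparisons within 1.5 times of the count reported.

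Cells were clustered together and named from marker genes. The comparison covered 5 classes with at least 50 cells in every library. Endothelial-like cells numbered 2477, 3008 and 3459, Kupffer-like cells (the resident liver macrophages) 566, 452 and 364, and monocyte-like cells 254, 479 and 1182. Neutrophil-like cells numbered 451, 2347 and 1853, and T-like cells 577, 112 and 207. UMIs were summed per library and class. Intervals are 95% intervals for counting error only and do not include differences between animals. A gene was measured in a class with at least 20 UMIs over both libraries, and called higher or lower at 2-fold or more, after adding 0.5 counts to each side, with an interval excluding 1. Because each value is a share of a class's UMIs, less RNA of 1 gene and more of all others cannot be told apart.

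**Figure D1:**
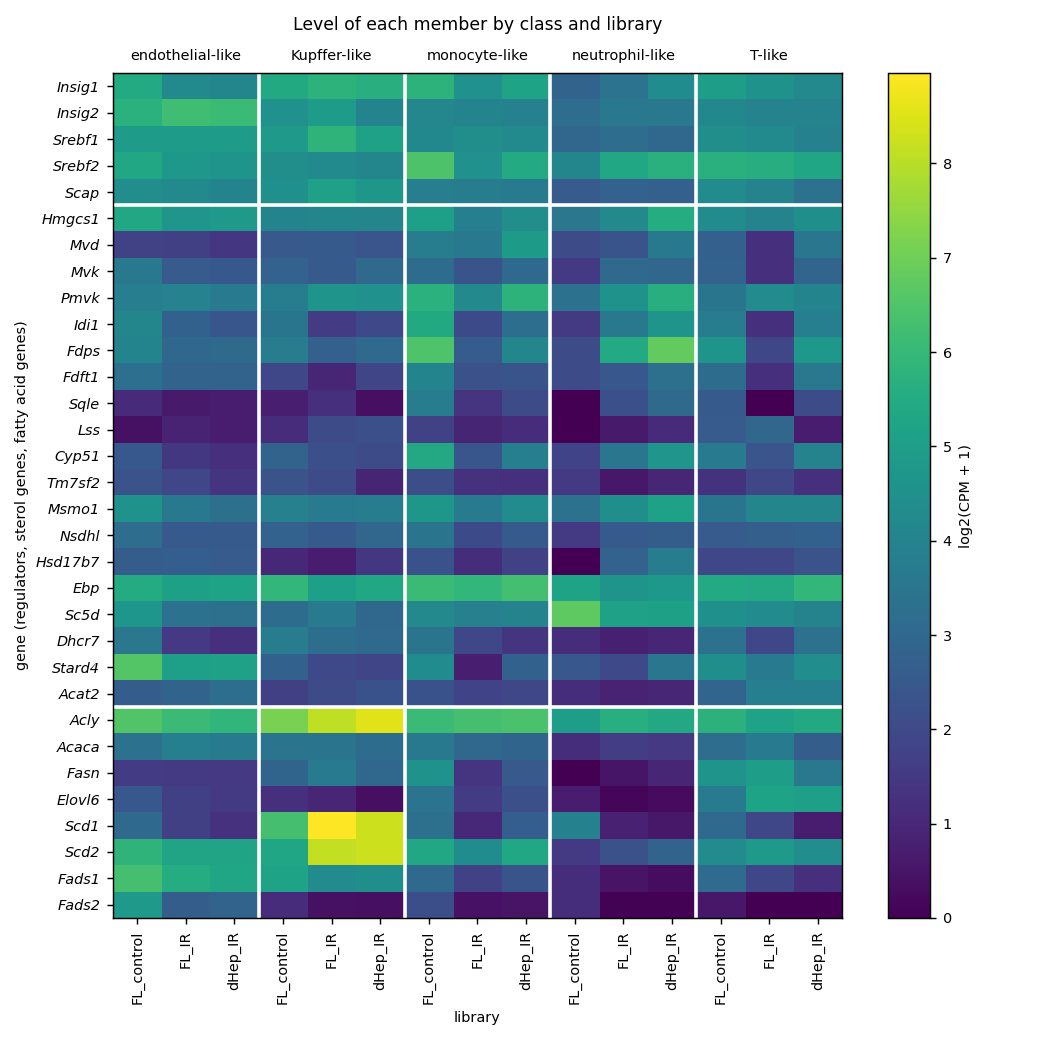
Level of each of the 32 genes as log2(CPM + 1), by colour, in 5 cell classes (blocks) and 3 libraries (columns), with regulators, sterol genes and fatty acid genes separated by white lines. The Scd1 and Scd2 cells of both irradiated Kupffer-like columns are bright, and the Fdps cell is brightest in the neutrophil-like column of the library labelled dHep_IR.

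The sterol genes and the fatty acid genes did not move as 1 block across cell types. Summed over the 19 sterol genes, endothelial-like cells held 331 CPM (324 to 339) in FL_control, 176 (170 to 182) in the library labelled FL_IR and 175 (169 to 181) in that labelled dHep_IR. Monocyte-like cells held 469 (444 to 494), 162 (152 to 173) and 287 (279 to 295) CPM. In neutrophil-like cells the same sum was 195 (174 to 218), 219 (213 to 225) and 416 (408 to 424) CPM. So the control library was highest in the first 2 classes and the library labelled dHep_IR was highest in neutrophil-like cells. Kupffer-like cells held 185 (174 to 196), 146 (133 to 160) and 152 (140 to 166) CPM of sterol genes. Their 8 fatty acid genes summed to 312 (298 to 327), 1088 (1052 to 1126) and 1032 (998 to 1066) CPM, the largest departure from the control library among the sums of the 5 classes. T-like cells held 229 (214 to 244), 170 (141 to 203) and 269 (243 to 296) CPM of sterol genes.

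**Figure D2:**
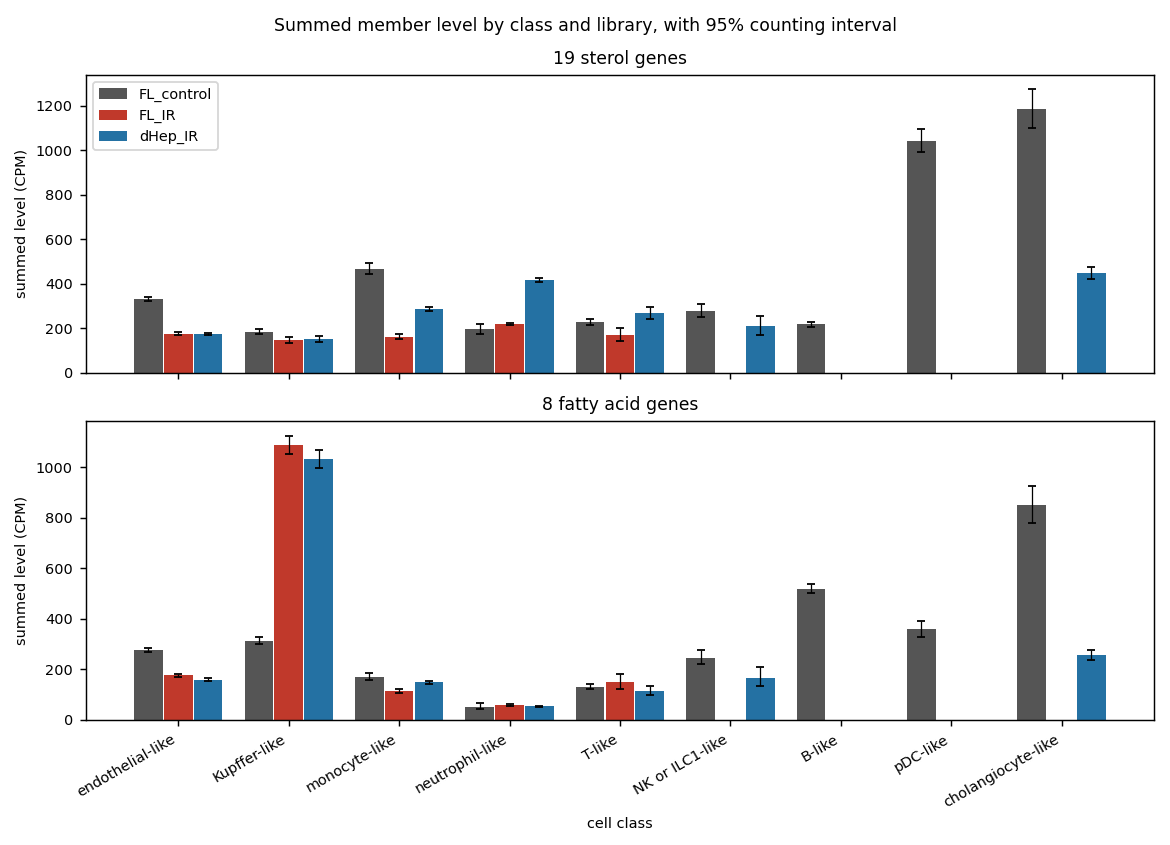
Summed level in CPM of the 19 sterol genes (top) and the 8 fatty acid genes (bottom) by cell class and library. A bar needs at least 50 cells of the class in the library. Hepatocyte-like and stellate-like cells are not drawn, although FL_control held at least 50 of each. Bars start at 0 and lines are 95% counting intervals. The irradiated Kupffer-like bars of the lower panel stand at 1088 and 1032 CPM against 312 CPM in the control library.

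Endothelial-like cells labelled FL_IR held less of many cholesterol genes than the control cells. Here and in the other classes, an effect of irradiation cannot be told apart from other differences between the single libraries. Of the 32 members, all measured, 11 were called lower and 0 higher, while over all 12670 measured genes 16.1% were called lower and 9.2% higher. The calls comprised 8 of 19 sterol genes, 1 of 5 regulators and 2 of 8 fatty acid genes. The members' median log2 ratio was -0.68 against -0.09 over all measured genes. Summed sterol genes were 1.88-fold lower (1.81 to 1.97).

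Dhcr7, the last enzyme of one route to cholesterol, stood at 10.6, 1.83 and 1.38 CPM. It was 5.82-fold lower (4.03 to 8.66) in the library labelled FL_IR than in FL_control. Stard4, which moves sterol between membranes, stood at 92.6, 32.5 and 33.8 CPM, 2.85-fold lower (2.60 to 3.13). Both irradiated libraries lay below the control library and close to each other for these genes. Idi1, which isomerizes isopentenyl diphosphate, was at 16.2, 5.87 and 4.25 CPM (2.76-fold lower, 2.22 to 3.47). Sc5d, a sterol desaturase, was at 25.1, 9.25 and 8.98 CPM (2.72-fold lower, 2.28 to 3.25). Mvk, Fdps, Cyp51 and Msmo1 were the other sterol genes called lower, by 2.02-fold to 2.65-fold. Not all steps of the pathway were called. Hmgcs1, an early enzyme of the pathway whose window is shown above, was at 39.5, 24.2 and 27.8 CPM (1.63-fold, 1.45 to 1.84), and Ebp, a sterol isomerase, at 44.5, 33.2 and 35.7 CPM.

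Among the regulators of endothelial-like cells, the paired Insig genes stood in opposite order. Insig1, whose own transcription is raised by SREBPs, was at 43.8, 18.7 and 16.2 CPM, 2.35-fold lower (2.07 to 2.67) in the library labelled FL_IR. Insig2 was at 51.6, 73.6 and 68.6 CPM, 1.43-fold above the control library (1.31 to 1.54) and not called. Srebf1 was level at 29.8, 29.6 and 30.0 CPM, with a ratio interval of 0.895 to 1.13 for the fold. Srebf2 was at 40.8, 26.1 and 23.6 CPM and was not called. Of the fatty acid genes, the desaturase Fads2 was at 27.8, 5.32 and 6.27 CPM, 5.23-fold lower (4.21 to 6.56). Its neighbour Fads1, which acts after it, was at 78.4, 45.9 and 38.7 CPM (1.71-fold, 1.57 to 1.86), not called. Scd1, which places the first double bond in saturated fatty acids, was at 7.31, 2.21 and 1.43 CPM (3.30-fold lower, 2.32 to 4.80). With hepatocyte RNA subtracted its log2 ratio turned to 0.60.

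Different clusters made up the endothelial-like class, clusters 0 and 2 in FL_control and mainly 6, 7 and 18 in the irradiated libraries. Summed sterol genes were 317 and 343 CPM in the control clusters. In the irradiated libraries every endothelial-like cluster with at least 50 cells held between 159 and 220 CPM. Cells with at least 1 Stard4 UMI, after each cell was thinned to 2000 UMIs, made up 15.7%, 6.58% and 6.44%, with 199, 274 and 336 shallower cells left out. Without thinning, the median UMIs per cell were 8428, 5657.5 and 5554. Transcripts of the proliferation list (12 genes) summed to 212, 120 and 122 CPM, and 10 of its 11 measured genes were called lower. The part of cell division and depth in the sterol differences was not tested beyond the settings reported with the limits.

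**Figure D3:**
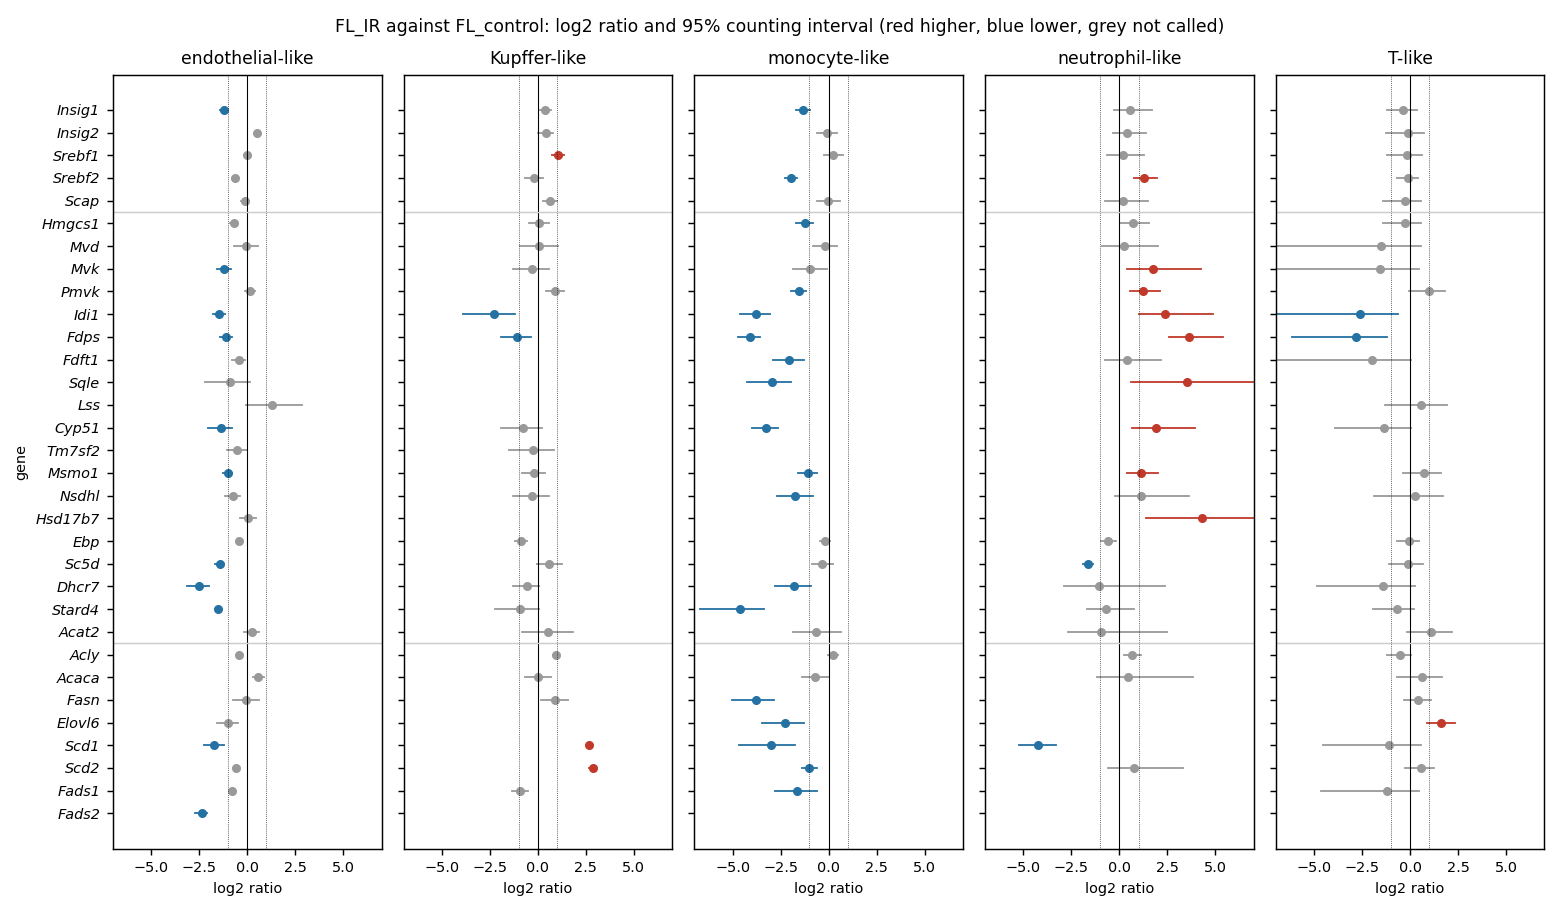
Log2 ratio of the library labelled FL_IR over FL_control for each measured gene in 5 cell classes; points are ratios, lines 95% counting intervals clipped at the panel edge, dotted lines mark 2-fold, red is called higher, blue lower and grey not called. Blue points fill the monocyte-like panel (18 genes), red points gather among the sterol genes of neutrophil-like cells, and Scd1 and Scd2 stand out in Kupffer-like cells.

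Kupffer-like cells showed a different pattern, with the stearoyl-CoA desaturases far higher in the irradiated libraries and the sterol genes mostly not called. Between the library labelled FL_IR and FL_control, 3 of 26 measured members were called higher and 2 lower, beside 6.12% and 8.69% of all 10427 measured genes. The median log2 ratio of the members was 0.05, against -0.03 over all genes. Control cells came from cluster 14 and irradiated cells from cluster 3.

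Scd1 stood at 78.5 CPM in FL_control, 496 in the library labelled FL_IR and 309 in that labelled dHep_IR. The first of these ratios was 6.32-fold (5.69 to 7.03). Scd2, its neighbour on chromosome 19, stood at 38.2, 280 and 308 CPM, 7.32-fold higher (6.31 to 8.52). Both irradiated libraries lay well above the control library for both genes. The sources used here do not say how reads that match both desaturase genes were counted. After thinning to 2000 UMIs, 14.6%, 56.3% and 39.9% of Kupffer-like cells had an Scd1 UMI, and 42.6%, 70.8% and 65.4% before it. For Scd2 the thinned shares were 5.91%, 41.0% and 43.2%, and 58, 125 and 68 shallower cells were left out. In T-like cells, thinned the same way, 1.59%, 0.909% and 0.505% had an Scd1 UMI. Depth per cell before thinning was 9838.5, 4913 and 7013.5 UMIs (median) in Kupffer-like cells and 6302, 5949.5 and 6044 in T-like cells.

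Hepatocyte transcripts (16 genes) took 0.126%, 0.187% and 0.101% of Kupffer-like UMIs. Hepatocyte-like cells themselves held Scd1 at 1490, 4.45 and 255 CPM and Scd2 at 2.59 CPM or less. The irradiated values rest on few cells, 42 labelled FL_IR with 449149 UMIs of all genes and 9 labelled dHep_IR with 19625. Hepatocyte-like cells also differed in median mitochondrial share (0.329%, 0.04% and 13.858%) and median depth (2604.5, 5143.5 and 1537 UMIs). Their profiles, which the subtraction of hepatocyte RNA uses, may therefore differ in cell quality. The part of hepatocyte RNA in Kupffer-like Scd1 was not tested beyond the subtraction reported with the limits. Srebf1 was the other member called higher, at 27.1, 55.6 and 33.8 CPM (2.05-fold, 1.65 to 2.57). Acly, which supplies cytosolic acetyl-CoA, was at 141, 271 and 378 CPM. It was 1.92-fold above the control library (1.75 to 2.12) in the library labelled FL_IR, not called, and 2.69-fold higher (2.46 to 2.94) in that labelled dHep_IR. The lower calls were Idi1 at 10.1, 1.93 and 2.94 CPM (5.24-fold, 2.27 to 14.9, with 6 UMIs in the library labelled FL_IR) and Fdps, the farnesyl diphosphate synthase, at 12.5, 5.79 and 7.34 CPM (2.16-fold, 1.28 to 3.85). After thinning 14 of the 26 members were still measured and 0 were called lower. Thinned Idi1 UMIs were seen in 3.15%, 0.612% and 0.676% of cells, too few for the minimum of 20 UMIs, and Fdps UMIs in 2.56%, 0.917% and 2.36%. Insig1 was at 42.1, 55.0 and 49.3 CPM, Insig2 at 22.3, 29.6 and 15.3 CPM, and Srebf2 at 20.7, 18.0 and 16.4 CPM, none of them called. Without Scd1 and Scd2 the members' sum in the library labelled FL_IR was 1.26-fold that of FL_control (1.20 to 1.34).

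Monocyte-like cells carried the broadest set of lower calls. In the library labelled FL_IR 18 of 28 measured members were called lower than in FL_control and 0 higher, beside 17.1% and 7.21% of all 9931 measured genes. By role these were 11 of 16 sterol genes, 2 of 5 regulators and 5 of 7 fatty acid genes. The median log2 ratio was -1.44 against -0.13 over all genes, and the summed sterol genes were 2.88-fold lower (2.65 to 3.14). When doublets were kept and the cells clustered anew, 8 of 23 measured members were called lower, all among the 18, with a median of -0.40, and the sum of all members in FL_control was 571 CPM in place of 827.

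Fdps stood at 88.1, 5.11 and 16.1 CPM, 17.2-fold lower (11.7 to 26.3) in the library labelled FL_IR than in FL_control. Idi1, a step before it, stood at 42.2, 3.0 and 8.35 CPM (14.1-fold lower, 8.44 to 25). For both genes the control library was high, the library labelled FL_IR low and that labelled dHep_IR in between. Cyp51, which removes a methyl group from lanosterol, was at 41.1, 4.23 and 13.5 CPM (9.73-fold lower, 6.23 to 15.8). Stard4 was at 19.4, 0.705 and 5.83 CPM, with 4 UMIs in the library labelled FL_IR (27.5-fold lower, 10.1 to 104). Sqle, which oxidizes squalene, was at 12.8, 1.59 and 3.25 CPM (8.06-fold lower, 3.82 to 19). The remaining sterol calls, Hmgcs1, Pmvk, Fdft1, Msmo1, Nsdhl and Dhcr7, were 2.13-fold to 4.20-fold lower. Mvd (12.8, 11.3 and 28.3 CPM), Ebp and Sc5d were measured and not called.

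The regulators Srebf2 and Insig1 were called lower as well. Srebf2, the template of SREBP-2, was at 86.4, 22.2 and 43.3 CPM (3.89-fold, 3.13 to 4.86), and Insig1 at 54.6, 21.8 and 35.9 CPM (2.50-fold, 1.96 to 3.19). Their partners were close to the control library, with Srebf1 at 16.9, 20.3 and 18.1 CPM and Insig2 at 16.6, 15.5 and 14.4 CPM. Fasn, the fatty acid synthase, was at 22.8, 1.59 and 4.71 CPM (14.4-fold lower, 7.14 to 32.8). Most of its control UMIs lay in cells named dendritic below. Scd1 was at 8.99, 1.06 and 5.44 CPM (8.50-fold lower, 3.42 to 25.3). Elovl6, Fads1 and Scd2 were the other fatty acid calls, 4.99-fold, 3.17-fold and 2.01-fold lower, whereas Acly was at 67.4, 78.4 and 83.0 CPM.

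The monocyte-like class did not hold the same cells in each library. FL_control cells lay in cluster 11, those of the library labelled FL_IR in cluster 12, and those of the library labelled dHep_IR in both. At a finer clustering 88 control cells, 5 of the library labelled FL_IR and 109 of that labelled dHep_IR were named conventional dendritic cells. Those 88 control cells held 633 CPM of sterol genes (591 to 677), against 329 (301 to 359) in the other 166. Without the dendritic cells 11 of 25 measured members were called lower and 0 higher, beside 13.8% and 5.73% of all genes, and the median log2 ratio was -0.86. All 11 (Cyp51, Dhcr7, Elovl6, Fdft1, Fdps, Idi1, Insig1, Msmo1, Scd1, Srebf2, Stard4) were among the 18. In those cells Fdps was at 44.2, 5.02 and 15.3 CPM and Srebf2 at 48.0, 21.5 and 37.9 CPM. Fasn, Sqle and Fads1 held 11, 7 and 3 UMIs there in FL_control, and 8, 9 and 11 in the library labelled FL_IR. That is too few for any of them to count as measured. Their levels there were 7.04, 4.48 and 1.92 CPM in FL_control against 1.43, 1.61 and 1.97 CPM. The 88 dendritic control cells held 55, 30 and 18 UMIs of these genes. The whole-class folds of Fasn, Sqle and Fads1 therefore rest largely on dendritic cells of FL_control. The proliferation list stood at 600, 153 and 330 CPM, with 10 of 11 measured genes called lower in the library labelled FL_IR. Leaving out cells with an Mki67 or Top2a UMI kept the count of lower members within 1.5 times of 18. The part of cell division in these differences was not tested beyond that setting. After thinning 11 members were still measured, of the 28, and 4 were called lower. The thinned share of cells with an Fdps UMI was 10.7%, 0.632% and 3.83%, and with an Idi1 UMI 6.44%, 0.211% and 1.96%.

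In neutrophil-like cells 8 of 17 measured sterol genes were called higher in the library labelled FL_IR than in FL_control, and 1, Sc5d, was lower. The sum of the 19 sterol genes was 1.12-fold that of FL_control, with an interval of 0.9995 to 1.26 that includes 1. In FL_control Sc5d alone gave 168 of the 314 sterol UMIs, so the sum depends heavily on this gene. The library labelled FL_IR had 9 of 26 measured members called higher than FL_control and 2 lower, beside 6.77% and 25.8% of all 9376 measured genes. The remaining higher call was 1 of 5 regulators. The median log2 ratio was 0.61 against -0.47 over all genes. Scaling by the TMM method moved the all-gene median to 0.25 and gave 15 higher and 1 lower.

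Fdps stood at 3.11, 43.1 and 111 CPM, 13.9-fold higher (5.92 to 42.8) in the library labelled FL_IR, from 5 UMIs in FL_control. Thinned to 2000 UMIs, 0.688%, 6.21% and 16.8% of cells had an Fdps UMI, and 1.11%, 23.6% and 55.3% before it, so the order of the libraries was the same. Idi1 was at 1.87, 11.2 and 23.9 CPM (5.99-fold higher, 2.03 to 29.2) and Cyp51 at 2.49, 10.4 and 24.3 CPM (4.16-fold higher, 1.60 to 15.4). Fdps, Idi1 and Cyp51 were among the genes called lower in monocyte-like cells of the same library. Srebf2 was at 16.2, 40.8 and 50.8 CPM (2.52-fold higher, 1.71 to 3.88). Pmvk, Mvk and Msmo1 were 2.45-fold, 3.92-fold and 2.23-fold higher. Hsd17b7, a sterol ketone reductase, had 0 UMIs in FL_control, which allows up to 1.87 CPM, and 6.05 and 13 CPM in the others. That is at least 3.24-fold higher in the library labelled FL_IR, taken against 3 counts in the control class. Sqle was likewise at 0 in FL_control, and at 3.55 CPM (at least 1.90-fold higher) and 7.60 CPM.

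A pair of members went the other way in neutrophil-like cells. Sc5d was at 105, 33.5 and 33.3 CPM (3.12-fold lower, 2.63 to 3.69) and Scd1 at 14.3, 0.757 and 0.477 CPM (18.9-fold lower, 9.86 to 36.7). Hepatocyte transcripts took 0.0937%, 0.0384% and 0.0151% of the UMIs. The part of hepatocyte RNA in neutrophil-like Scd1 was not tested beyond the subtraction given next. With hepatocyte RNA subtracted, Scd1 was no longer called lower in the library labelled FL_IR, at a log2 ratio of -1.49, and Sc5d still was. Insig1 was at 6.23, 9.72 and 19.6 CPM, Insig2 at 8.09, 11.0 and 11.2 CPM, and Srebf1 at 6.85, 8.17 and 7.20 CPM, none called in the library labelled FL_IR against the control library. In that labelled dHep_IR, Insig1 was called higher than in FL_control (3.14-fold, 1.69 to 6.60).

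The neutrophil-like clusters differed in make-up and in sterol genes. Control cells formed cluster 1, led by G0s2, Retnlg and Hcar2. Irradiated cells formed cluster 19, led by Ngp, Camp and Retnlg, cluster 20, led by Cstdc5, Ngp and Camp, and cluster 21, led by Retnlg, Cstdc4 and Stfa2l1. Retnlg was among the 10 leading genes of all of them, and clusters 20 and 21 shared several Stfa and Cstdc genes. The granule genes Ngp, Camp and Ltf were among the 10 leading genes of clusters 19 and 20 and not of clusters 1 and 21. In the library labelled FL_IR these held 744, 209 and 1394 cells, and in that labelled dHep_IR 1109, 233 and 509. Set alone against the control class, cluster 19 of the library labelled FL_IR had 11 of 24 members higher (8.95% of all genes) and cluster 20 had 9 of 21 (9.38%). Both counts include Hsd17b7, and that of cluster 19 includes Sqle, each at 0 UMIs in the control class. Cluster 21 had 1 of 22 higher (6.17%), Fdps at 17.0 CPM, and 3 lower (23.7%). Summed sterol genes were 197 CPM (176 to 220) in control cluster 1, and 291 (280 to 302), 295 (277 to 314) and 141 (135 to 148) in clusters 19, 20 and 21 of the library labelled FL_IR. Sc5d alone was at 106 CPM in control cluster 1, and at 33.6, 24.2 and 35.9 CPM in those clusters. The lower sum of cluster 21 therefore does not describe the other sterol genes. Depth also differed, with a median of 3470, 9855 and 13279 UMIs per cell.

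**Figure D4:**
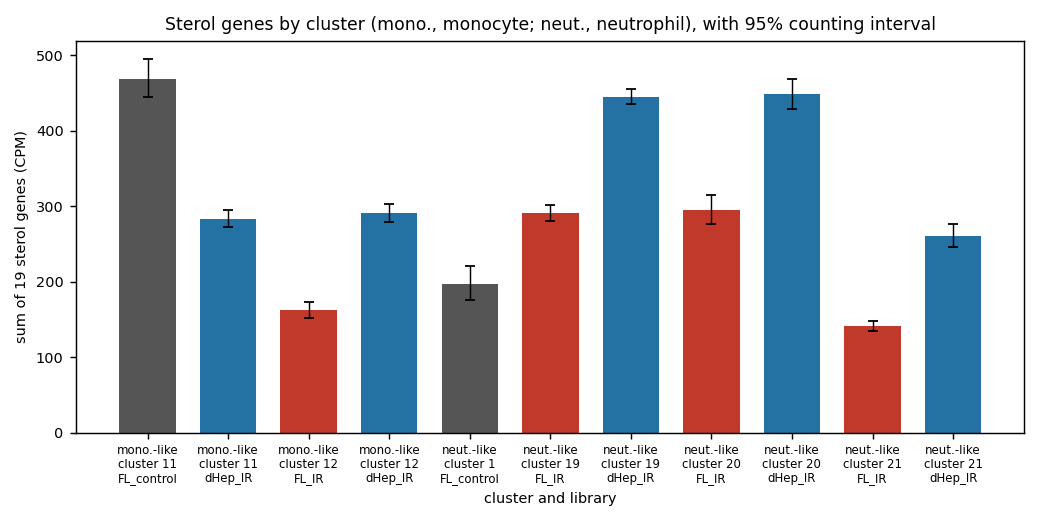
Summed level of the 19 sterol genes in CPM in each monocyte-like and neutrophil-like cluster with at least 50 cells of a library; bars start at 0, lines are 95% counting intervals and colours mark the library. Within each cluster shared by both irradiated libraries the bar of the library labelled dHep_IR is the taller, for example 291 against 162 CPM in monocyte-like cluster 12.

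T-like cells, all of cluster 9, gave few calls. Against FL_control, 1 of 28 measured members was higher and 2 lower in the library labelled FL_IR, beside 3.43% and 5.0% of all 9165 measured genes. Elovl6, which elongates fatty acids, was at 11.5, 35.6 and 32.6 CPM (3.09-fold higher, 1.83 to 5.10). Fdps (23.6, 2.74 and 26.7 CPM) and Idi1 (12.5, 1.37 and 13.7 CPM) were the lower calls, and they rested on 2 and 1 UMIs in the library labelled FL_IR. Their fold intervals, 2.32 to 72.1 and 1.57 to 369, show how little 112 cells allow. With a minimum of 100 UMIs per gene, which 6 members met, or after thinning, when 13 were measured, no member was called in T-like cells. Scd2 was at 18.8, 27.4 and 20.2 CPM, Fads1 at 7.78, 2.74 and 1.30 CPM, Srebf2 at 50.9, 46.6 and 37.2 CPM and Insig1 at 30.4, 23.3 and 17.6 CPM.

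The irradiated libraries were then compared with each other. With 1 library each, an effect of the labelled Gsdmd deletion cannot be told apart from other differences between the libraries. This comparison shares the library labelled FL_IR with the one above, and Gsdmd itself was lower in that library. Monocyte-like cells labelled dHep_IR had 9 of 31 measured members called higher than those labelled FL_IR and 0 lower, beside 6.44% and 3.21% of all genes. Neutrophil-like cells had 11 of 29 higher and 0 lower, beside 3.77% and 2.86%. Endothelial-like cells had 0 called in either direction of 32 (1.25% and 2.08% of all genes), and Kupffer-like cells 0 of 24 (2.72% and 5.85%). The members' median log2 ratios were 0.71 and 0.73 in monocyte-like and neutrophil-like cells, -0.13 in endothelial-like and -0.12 in Kupffer-like cells, against -0.03, -0.09, -0.08 and -0.16 over all genes.

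In monocyte-like cells the higher calls were 6 of 19 sterol and 3 of 7 fatty acid genes. Pmvk, the phosphomevalonate kinase, was at 51.5, 17.4 and 54.3 CPM, 3.11-fold higher (2.53 to 3.87) in the library labelled dHep_IR than in that labelled FL_IR. Mvd, which acts next, was at 12.8, 11.3 and 28.3 CPM (2.51-fold, 1.93 to 3.31). Mvd alone among the higher calls also stood above the control library by 2-fold or more, at 2.21-fold (1.58 to 3.18). Thinning to 2000 UMIs removed both Mvd calls, with log2 ratios of 0.66 over the library labelled FL_IR and 0.50 over FL_control. Within cluster 11 alone Mvd was at 12.8 CPM in FL_control and 23.2 in the library labelled dHep_IR, and 0 of 30 members were called higher. Fdps, Idi1 and Cyp51 were 3.16-fold, 2.79-fold and 3.18-fold higher, and Stard4 8.27-fold (3.14 to 30.9) from 4 UMIs. Scd1, Scd2 and Fasn were 5.14-fold, 2.06-fold and 2.97-fold higher. Srebf2 was 1.95-fold above (1.61 to 2.38) and Insig1 1.64-fold (1.36 to 2.01), neither called. Leaving out the dendritic cells kept all 9, with 0 lower, beside 5.74% and 3.23% of all genes. Within cluster 12 alone, which held 439 cells labelled FL_IR and 531 labelled dHep_IR, 9 of 27 were higher (3.64% of all genes) and 0 lower (4.08%), Fdps by 3.44-fold (2.29 to 5.34) and Pmvk by 2.44-fold (1.92 to 3.13). The proliferation list was higher in 10 of its 12 genes.

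In neutrophil-like cells the higher calls were 9 of 19 sterol genes, Insig1 and Fasn. Hmgcs1 was at 10.6, 17.6 and 45.9 CPM, 2.60-fold higher (2.33 to 2.91) in the library labelled dHep_IR than in that labelled FL_IR. Mvd was at 3.11, 4.06 and 11.2 CPM (2.76-fold, 2.19 to 3.50) and Stard4 at 4.36, 2.91 and 10.5 CPM (3.60-fold, 2.77 to 4.73). Fdps was 2.56-fold higher (2.39 to 2.75), and Pmvk, Idi1, Sqle, Cyp51 and Hsd17b7 2.14-fold to 2.35-fold. The fatty acid genes stayed apart from this, with a sum of 51.7, 57.0 and 51.7 CPM and Acly at 31.1, 49.4 and 41.9 CPM. Fasn was called on 11 and 24 UMIs (2.18-fold, 1.03 to 4.93).

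Part of this difference lay between clusters. Within cluster 19 alone 3 of 28 members were higher (3.48% of all genes), in cluster 20 it was 2 of 22 (2.12%), and in cluster 21 it was 11 of 22 (7.88%). None was lower, beside 2.4%, 4.05% and 1.91% of all genes. Hmgcs1 was called in all 3 clusters, at 2.12-fold (1.83 to 2.46), 2.30-fold (1.73 to 3.10) and 2.29-fold (1.78 to 2.95). Summed sterol genes were 445 against 291 CPM in cluster 19, 448 against 295 in cluster 20 and 261 against 141 in cluster 21, each higher in the library labelled dHep_IR. Hepatocyte transcripts went the other way, with 12 of 15 called lower in neutrophil-like and 11 of 14 in monocyte-like cells.

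**Figure D5:**
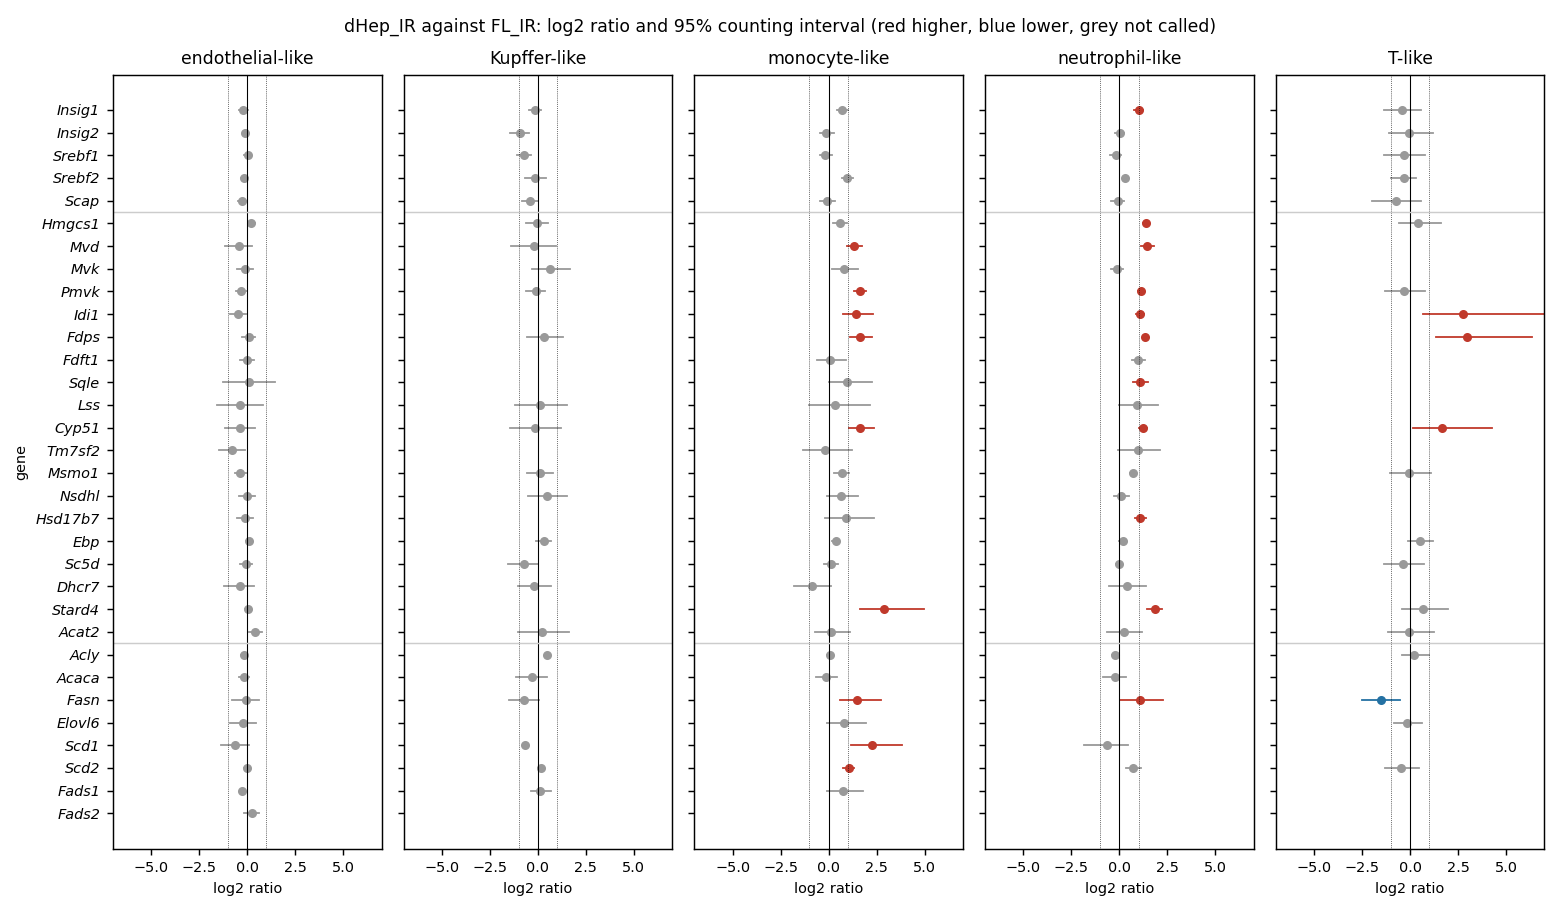
Log2 ratio of the library labelled dHep_IR over that labelled FL_IR for each measured gene in 5 cell classes; points are ratios, lines 95% counting intervals clipped at the panel edge, dotted lines mark 2-fold, red is called higher, blue lower and grey not called. Endothelial-like and Kupffer-like points are all grey, and the red points are 9 monocyte-like, 11 neutrophil-like and 3 T-like genes.

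For endothelial-like cells the interval of the summed sterol ratio was 0.947 to 1.04, around a value of 0.994. For the fatty acid genes of Kupffer-like cells it was 0.904 to 0.994, around 0.948. Scd1 in Kupffer-like cells was 1.61-fold lower (1.49 to 1.74) in the library labelled dHep_IR, under the 2-fold needed for a call, and Acly 1.40-fold above (1.28 to 1.53). T-like cells had 3 of 19 members higher and 1 lower (2.76% and 2.59% of all genes). The higher calls were Fdps, Idi1 and Cyp51 (12.3, 4.11 and 15 CPM), which rested on 1 to 3 UMIs in the library labelled FL_IR, and the lower call was Fasn at 23.6, 31.5 and 11.1 CPM (2.84-fold, 1.45 to 5.67).

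Set against FL_control directly, the library labelled dHep_IR had 14 of 32 members lower and 0 higher in endothelial-like cells (18.6% and 7.91% of all genes), among them Fads1 at 2.03-fold (1.86 to 2.21). Kupffer-like cells had 3 of 27 higher, Scd1, Scd2 and Acly, and 3 lower (5.83% and 13.8%). Monocyte-like cells had 11 of 31 lower and 1 higher (16.3% and 6.0%). Without the dendritic cells these were 6 and 1 of 31 (14.5% and 5.13%), and the 1 was again Mvd. At the finer clustering, 91 of the other control cells formed a cluster with 0 irradiated cells. In the monocyte-like cluster with 73 control cells and 472 labelled dHep_IR, 3 of 25 were lower and 1 higher (14.2% and 4.49%). The dendritic cells, 88 and 109, had 12 of 26 lower and 1 higher (8.78% and 6.97%). Neutrophil-like cells had 15 of 29 higher and 2 lower (7.86% and 30.2%). Of the 29, 4 had 0 UMIs in FL_control and were measured only through the library labelled dHep_IR. In neutrophil-like cells Fdps was 35.5-fold higher (15.2 to 109). T-like cells had 2 of 29 higher and 5 lower (3.75% and 7.23%). Cells resembling natural killer cells, 224 and 77 in number, had 0 of 21 higher and 2 lower (3.4% and 10.4%), Fdps on 1 UMI and Srebf2 at 34.2 against 14.7 CPM (2.32-fold, 1.04 to 6.11). This comparison also had enough cells of the bile duct lining, 55 cholangiocyte-like cells in FL_control and 86 in the library labelled dHep_IR, all of cluster 15. In these 21 of 30 measured members were lower and 0 higher, beside 13.3% and 3.7% of all genes. Idi1 was at 106 CPM against 7.15 (14.8-fold lower, 8.70 to 26.6), Insig1 at 63.7 against 9.14 (6.97-fold, 4.06 to 12.2) and Scd2 at 407 against 96.5 (4.21-fold, 3.51 to 5.05). Many of these cells carry a barcode found in another library, 23 of the 55 and 28 of the 86. Without them 32 and 58 cells remained, and 21 of 28 members were lower, with summed levels of 2456 and 863 CPM, against 2412 and 867 with all cells.

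Genes that export, store or take up sterol gave calls in both directions. The shares of all genes called higher and lower were 9.2% and 16.1% in endothelial-like, 6.12% and 8.69% in Kupffer-like, 7.21% and 17.1% in monocyte-like, and 6.77% and 25.8% in neutrophil-like cells, and counts of a few genes per list are often near them. Of the list of sterol efflux and LXR target genes, between the library labelled FL_IR and FL_control, 1 of 7 measured was higher and 2 lower in endothelial-like cells. It was 1 and 1 of 7 in Kupffer-like, 0 and 3 of 7 in monocyte-like, and 0 and 4 of 6 in neutrophil-like cells. In neutrophil-like cells the lower genes were Arl4c (125 to 1.63 CPM), Abcg1 (79.7 to 14.1), Mylip (62.9 to 15.3) and Abca1 (18.1 to 8.56). Abca1, named here after its values were seen, was higher in endothelial-like cells (52.3 to 386 CPM, 7.38-fold, 6.93 to 7.87) and in Kupffer-like cells (228 to 727 CPM, 3.19-fold, 2.98 to 3.42). Storage and lysosomal release genes gave 1 higher and 3 lower of 12 in endothelial-like cells, among them Soat1, which esterifies cholesterol, at 56.5 to 22.6 CPM. The isoprenoid branches gave 1 and 1 of 11 there, and the higher gene was Nus1, needed for dolichol synthesis, at 126 to 655 CPM. Sensing and SREBP-processing genes gave 1 higher (Lbr, 96.4 to 200 CPM) and 2 lower (Rnf145 and Erlin1) of 10 in monocyte-like cells. Acyl-CoA supply gave 1 and 2 of 15 in endothelial-like cells, with the lipogenic gene Thrsp at 26.7 to 1.77 CPM, and fatty acid oxidation 1 and 1 of 11 in neutrophil-like cells. Lipoprotein receptors gave 2 and 1 of 5 in monocyte-like cells, where the scavenger receptor Cd36 was at 122 to 13.2 CPM and the receptor Lrp1 at 163 to 361 CPM.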

How the data were processed

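Liver cells of 3 libraries were profiled with 10x Chromium 3′ v3.1 chemistry, per the labels' protocols. The authors deposited raw counts (UMIs per gene and barcode). Cell Ranger 6.1.1, CASAVA 1.8, Seurat 4.0.3 and mm10 are named in the submitters' processing notes. Kept barcodes had 500 UMIs and 250 genes or more and 25% mitochondrial UMIs or less, Scrublet doublets (2.42% to 3.85% per library) were removed, and cells were clustered without integration (scanpy 1.11.5, 2000 variable genes, 30 components, Leiden resolution 1, 23 clusters). Clusters were named from fixed markers by a scoring set after the clusters were seen, and 1 cluster stayed unnamed. UMIs of each class were added up by library and compared as CPM with exact conditional intervals (scipy 1.17.1), tested on simulated data. TMM factors came from edgeR 4.0.16. No test across samples was possible with 1 library per group. Members were described by role, and of each other pathway list up to 4 called genes with the largest ratio, in the class with most calls, could be named. The members and lists were chosen with earlier results of these data known.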

Additional observations from a re-analysis of the deposited data

Results flagged for a closer look

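For 11 of the 32 genes the comparison of the library labelled FL_IR with FL_control gave a higher call in one class and a lower call in another. The difference between the classes was not tested, since each class has 1 library per group. The values are log2 ratios in the higher class minus those in the lower class. Between neutrophil-like and monocyte-like cells the difference was 7.74 for Fdps, 6.47 for Sqle, 6.14 for Idi1, 5.15 for Cyp51, 3.27 for Srebf2, 2.81 for Pmvk and 2.20 for Msmo1. That of Sqle rests on the 0.5 counts added, because neutrophil-like cells of FL_control held 0 Sqle UMIs. Without the dendritic cells, Sqle was not measured in monocyte-like cells. Mvk differed by 2.96 between neutrophil-like and endothelial-like cells. Scd1 differed by 6.89 between Kupffer-like and neutrophil-like cells, and Scd2 by 3.88 between Kupffer-like and monocyte-like cells. Elovl6 differed by 3.92 between T-like and monocyte-like cells.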

How the results depend on the processing

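No paired analysis was possible because each group has 1 library. Of 21 alternative settings, 11 were planned and 10 were chosen after seeing the data; the cause of each shift was not tested. Fewer genes or cells limit the minimum of 100 UMIs, the thinning and the single clusters.

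Between the library labelled FL_IR and FL_control, endothelial-like higher calls were 1 with TMM and 1 with doublets kept, and the median was -0.86 thinned. Kupffer-like higher calls were 5 with hepatocyte RNA subtracted and 7 at 1.5-fold, and lower calls 4 with per-cell CPM, 0 at 100 UMIs, 1 with hepatocyte RNA subtracted, 0 thinned and 4 at 1.5-fold. Monocyte-like lower calls were 8 with doublets kept, 11 at resolution 2, 9 at 100 UMIs, 4 thinned and 11 without dendritic cells, with medians of -0.40, -0.86, -1.05, -0.70 and -0.86. Neutrophil-like higher calls were 15 with TMM and 1 for cluster 21 alone, and lower calls 1 with TMM, at 100 UMIs and with hepatocyte RNA subtracted. T-like higher calls were 2 with per-cell CPM, doublets kept, hepatocyte RNA subtracted or cycling cells left out, and 0 at 100 UMIs or thinned. T-like lower calls were 4 with TMM or per-cell CPM, and 0 at 100 UMIs or thinned.

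Between the irradiated libraries, endothelial-like lower calls were 1 with hepatocyte RNA subtracted and at 1.5-fold. Kupffer-like lower calls were 1 thinned and 3 at 1.5-fold. Monocyte-like higher calls were 4 thinned and 14 at 1.5-fold, and lower calls 1 with hepatocyte RNA subtracted. Neutrophil-like higher calls were 3 in cluster 19 (median 0.33) and 2 in cluster 20, and lower calls 1 with hepatocyte RNA subtracted. T-like higher calls were 0 at 100 UMIs or thinned, 5 at 1 UMI and 1 without cycling cells, and lower calls 0 at 100 UMIs or thinned and 2 at 1 UMI.

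Between the library labelled dHep_IR and FL_control, endothelial-like higher calls were 1 with per-cell CPM and at 1.5-fold, and Kupffer-like higher calls 5 with per-cell CPM. Kupffer-like lower calls were 0 at 100 UMIs, 1 thinned and 6 at 1.5-fold. Monocyte-like higher calls were 2 with doublets kept, and lower calls 6 with doublets kept, at resolution 2, thinned or without dendritic cells, 7 at 100 UMIs and 17 at 1.5-fold. Neutrophil-like lower calls were 1 with TMM, at 100 UMIs, with hepatocyte RNA subtracted or thinned. T-like higher calls were 0 at 100 UMIs and 1 thinned, and lower calls 1 and 3.

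Sums of all 32 genes kept the order of the libraries within Kupffer-like and neutrophil-like cells. Thinned, they were 663, 1518 and 1399 CPM in Kupffer-like cells of FL_control and the libraries labelled FL_IR and dHep_IR. With doublets kept the irradiated sums were 1355 and 1247, and with hepatocyte RNA subtracted the control sum was 577. Thinned neutrophil-like sums were 337 and 540 CPM in the irradiated libraries, 360 with doublets kept in that labelled FL_IR, and 251 in FL_control with hepatocyte RNA subtracted. Monocyte-like sums were 758 thinned and 571 with doublets kept in FL_control, and 529 with doublets kept in the library labelled dHep_IR. With hepatocyte RNA subtracted the FL_control sums were 774 CPM (endothelial-like) and 474 CPM (T-like), and the thinned T-like sum of the library labelled dHep_IR was 361 CPM.

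Reversed log2 ratios for the library labelled FL_IR over FL_control were 0.60 for endothelial-like Scd1 (hepatocyte RNA subtracted) and 0.0063 for monocyte-like Scd2 (thinned). For the library labelled dHep_IR over FL_control they were 0.0002 (without dendritic cells), 0.0002 (resolution 2) and 0.33 (doublets kept) for monocyte-like Nsdhl, 0.14 for T-like Scap (thinned) and -0.10 for neutrophil-like Scd2 (resolution 2). The other 534 counts, medians and sums did not shift by these criteria. Of values for single called genes, 1452 kept their call and 116 lost it.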

Other observations

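Plasmacytoid dendritic-like cells, 166 in FL_control, 0 in the library labelled FL_IR and 5 in that labelled dHep_IR, could not be compared between libraries. In FL_control their 19 sterol genes summed to 1042 CPM (991 to 1094). Fdps was at 203 CPM, Srebf2 at 131, Insig1 at 121, Idi1 at 101 and Hmgcs1 at 99.5. B-like cells, 1417 in FL_control and 20 and 11 in the irradiated libraries, held 218 CPM of sterol genes and 519 CPM of fatty acid genes there, with Scd1 at 410 CPM.

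Hepatocyte-like cells, the main sterol producers of the liver by textbook knowledge, were few in the irradiated libraries (104, 42 and 9 cells). The 32 genes summed to 5237, 1305 and 2395 CPM in them. Hmgcs1 was at 439, 138 and 204 CPM, Fdps at 425, 102 and 204 CPM, Idi1 at 366, 86.8 and 153 CPM and Insig2 at 372, 149 and 153 CPM. All of these were highest in FL_control, but with 9 cells in the library labelled dHep_IR no call was made. Mitochondrial share and depth of these cells differed between the libraries, as given for Kupffer-like Scd1.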
